A study of Mus musculus with 125 samples.

Results

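Of the 125 libraries in a study of single mouse embryos at the 2-cell stage, 3 from zygotes with 1 pronucleus (1PN) carry an in silico label that sets them apart from usable embryos. Embryo 16 is labelled dead, and embryos 6 and 8 are labelled as of low quality. These 3 libraries, called excluded here, were set against the 11 libraries of the same cross and zygote type that carry the label 1PN, called kept here. The members were chosen from these labels alone, and the sources used here do not give the criterion behind the labels. It may rest on the same reads, so a difference between excluded and kept libraries is not independent of the labels.

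The groups share one cross, C57BL/6 xJF1/Ms, and the labels do not say which strain was the mother. All zygotes were picked 10 h after fertilization, lost their second polar body by micromanipulation and were collected as 2-cell embryos at 34 h. Each library came from 1 embryo, with cDNA made by SMART-Seq v4 and tagged with Nextera XT. Of the 22 1PN libraries of this cross, 1 is the dead one, 2 are of low quality, 8 carry an in silico label as parthenogenetic, and 11 are kept. A parthenogenetic embryo develops without a paternal genome, and its 1 pronucleus is then maternal. Nothing in the labels says which embryos shared parents, so the p-values below measure only the spread between these embryos.

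A mouse egg carries a store of maternal mRNA made during oocyte growth. After fertilization this store is cleared, with the CCR4-NOT deadenylase and its adaptor Btg4 among the main agents, and the embryo's own genome is switched on in its major wave at the 2-cell stage. That wave brings in short-lived 2-cell transcripts such as the Zscan4 and Zfp352 genes and a broad rise in genes of ribosome assembly, translation and energy metabolism. The gene lists below follow these steps.

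Total counts of the excluded libraries lay within the range of the kept ones. The dead library held 3547812 gene counts, embryo 6 held 3670128 and embryo 8 held 2625932, while the 11 kept libraries held from 2025580 to 4370694 with a median of 3563885. The number of genes with at least 1 count was 13233 in the dead library, 19377 in embryo 6 and 19676 in embryo 8, against 17104 to 21002 in kept libraries. After every library was thinned to 2025580 counts, the lowest total of the 14, the dead library still stood alone with 12511 genes, while embryo 6 had 18420 and embryo 8 had 19315, within the kept range of 17167 to 19854. The dead library thus had fewer detected genes than any kept library at equal depth, and the low quality libraries lay inside the kept range.

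Mitochondrially encoded genes took 22.4% of the counts of the dead library, 4.78% of embryo 6 and 12.6% of embryo 8, against 3.97% to 9.79% with a median of 6.31% in kept libraries. The low quality embryos lay on opposite sides of the kept median for this measure. The 50 most counted genes took 39.2% of the dead library, 23.4% of embryo 6 and 19.1% of embryo 8, against 12.3% to 23.8% in kept libraries. Spearman's rank correlation across genes between a library and the mean of the other kept libraries was 0.432 for the dead library, 0.649 for embryo 6 and 0.813 for embryo 8, against 0.743 to 0.926 with a median of 0.907 for kept libraries. Genes are not independent replicates, so the correlation serves here only as 1 measure per library. The kept library with the correlation of 0.743, embryo 9, lay further from the other kept libraries than embryo 8 did.

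Over 7 such measures, compared between 3 excluded and 11 kept libraries by 2-sided exact permutation tests with Benjamini-Hochberg adjustment, 2 passed at 0.05. The share of the 50 most counted genes averaged 27.2% ± 10.6 in excluded and 15.7% ± 3.43 in kept libraries (SD, n = 3 and 11), with an exact p of 0.00824 and an adjusted p of 0.0288. The rank correlation averaged 0.631 ± 0.191 in excluded and 0.890 ± 0.0529 in kept libraries (SD, n = 3 and 11), with a permutation p of 0.00549 and an adjusted p of 0.0288. Its reference is the mean of libraries labelled kept and was not recomputed for each arrangement. For this measure the p is therefore not exact, and the adjustment of the other measures includes it. With 1 excluded library left out, the difference was 5.55 to 15.6 percentage points for the 50 most counted genes and -0.349 to -0.159 for the rank correlation, and the few arrangements of 2 against 11 libraries leave little room to pass the adjustment. The mitochondrial share averaged 13.3% ± 8.83 in excluded and 6.79% ± 2.11 in kept libraries (SD, n = 3 and 11), with an exact p of 0.0412 that became 0.0962 after adjustment. Adjusted exact p-values were 0.772 for total counts, 0.135 for genes with counts before and after thinning, and 0.183 for the share of counts in pseudogenes. The smallest p that 364 arrangements allow is 0.00275.

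**Figure D1:**
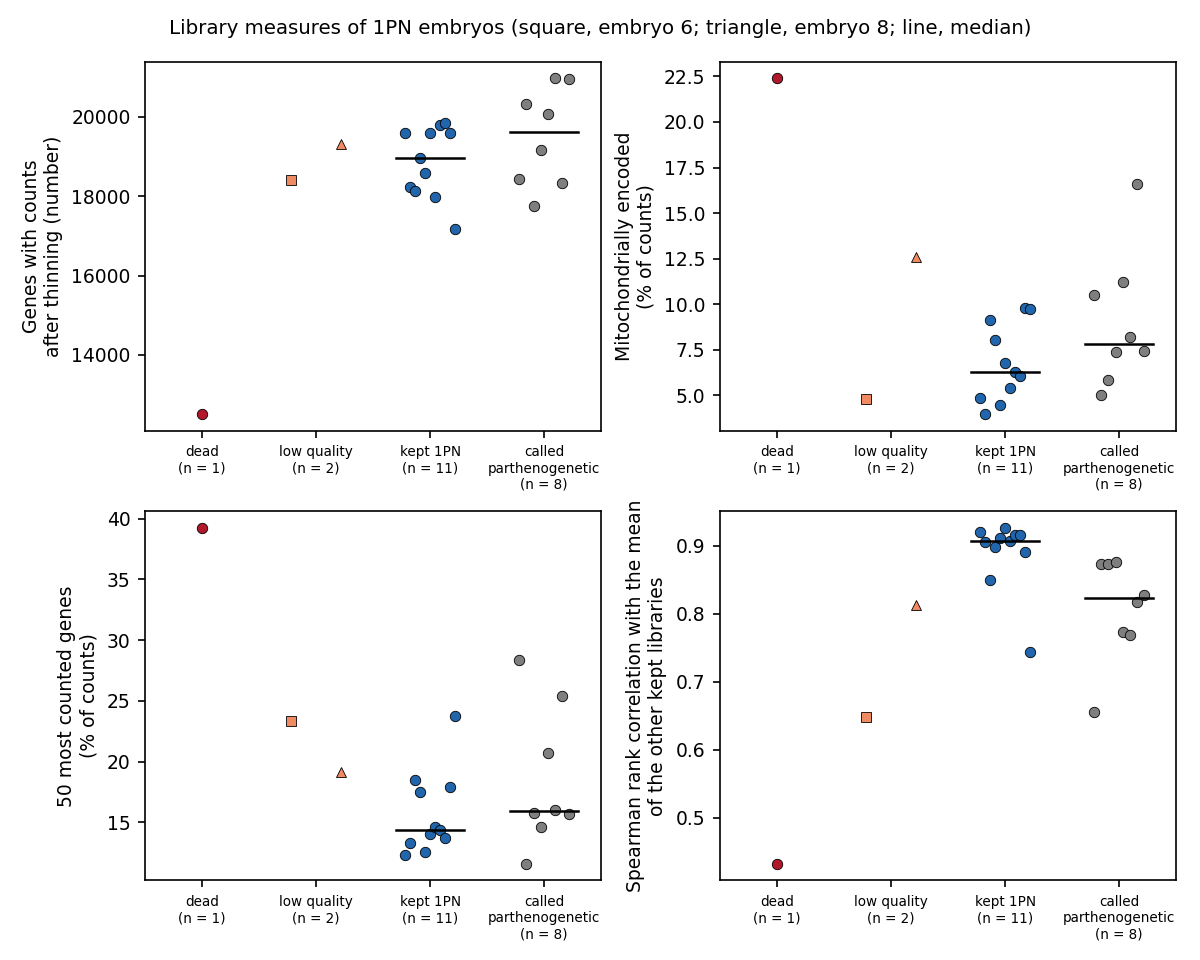
Number of genes with counts after thinning to equal depth, share of counts (%) of mitochondrially encoded genes and of the 50 most counted genes, and Spearman's rank correlation across genes with the mean of the other kept libraries, for each 1PN library (points; line, median; square, embryo 6; triangle, embryo 8). The dead library lies outside the kept range in all 4 panels, with 12511 genes and a mitochondrial share of 22.4%.

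The label of a 2-cell embryo was checked with 2-cell and oocyte markers, given in CPM, a gene's counts scaled by the total gene counts of its library. Zscan4d, of a family expressed in a burst at the 2-cell stage, had 0.141 CPM in the dead library, 594 CPM in embryo 6 and 748 CPM in embryo 8, against 55.7 to 1897 CPM with a median of 138 in kept libraries. Zfp352, a zinc finger gene of the same stage, had 0.282 CPM in the dead library, 1429 CPM in embryo 6 and 524 CPM in embryo 8, against 188 to 2197 CPM in kept libraries. Tdpoz4, another gene of this burst, had no count in the dead library, 52 CPM in embryo 6 and 62.3 CPM in embryo 8, against 29.3 to 261 CPM in kept libraries. Zscan4c had 2.82 CPM in the dead library, 68.8 CPM in embryo 6 and 316 CPM in embryo 8, against 9.63 to 1178 CPM in kept libraries. Usp17la, with 5.92, 135 and 49.3 CPM in the same order, lay inside the kept range of 0.801 to 1027 CPM in each of them. Obox3, given below, was under the kept range in the dead library and in embryo 6. The dead library was thus under the kept range for each of these 2-cell markers except Usp17la. Both low quality libraries lay inside the kept ranges, except embryo 6 for Obox3. For Zscan4d the top of the kept range was embryo 9 alone, and each other kept library had at most 201.5 CPM. Embryos 6 and 8 were above those libraries, and above the 77 to 279 CPM of libraries called parthenogenetic. Reads of multicopy families such as Zscan4, Obox, Oog and Tdpoz can be split between near-identical copies, so single members of these families are uncertain.

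Across 16435 genes, edgeR's quasi-likelihood test called 3156 (19.2%) between excluded and kept libraries at an adjusted p under 0.05. Of these, 2028 genes (12.3%) were higher and 1128 (6.86%) lower in excluded libraries, and 5844 genes had an unadjusted p under 0.05. The median log2 fold change of all genes tested was -0.19, and group values below are to be read against it. The split between higher and lower rests on the model, since DESeq2 called 2506 higher and 2633 lower, and a single fit over all 125 libraries called 2261 higher and 4544 lower. The counts depend on single libraries as well. Without the dead library 573 genes (3.49%) were higher and 344 (2.09%) lower, without embryo 6 there were 1097 and 512, and without embryo 8 there were 2797 and 3428. The median log2 fold change of all genes in these fits was -0.06, -0.32 and -0.66 in that order. List values below with a library left out are to be read against the same fit. All 3 excluded libraries lay above the kept range for 572 genes (3.48%) and below it for 684 (4.16%). Of 121 named genes that passed, 45 passed with the same sign under each of 11 alternatives, and the genes given with full statistics below are from these unless a value without a library is printed beside them. Since counts are relative within a library, less RNA of one kind and more of the rest cannot be told apart, and neither can fewer cells and less RNA per cell.

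Oocyte-derived transcripts were the clearest higher group. Of 57 tested, 29 rose and 1 fell, where 12.3% of all genes rose and 6.86% fell, and the median log2 fold change was 1.61. Without the dead library 11 were higher and the median was 1.15, without embryo 6 there were 14 and it was 1.06, and without embryo 8 there were 38 and it was 1.87. The list was chosen with earlier results of these data known. The mean level of the list on the log2(CPM + 1) scale was 7.02 in the dead library, 7.62 in embryo 6 and 6.12 in embryo 8, against 5.55 to 6.57 in kept libraries, so embryo 8 lay inside the kept range. Bmp15, a growth factor secreted by the oocyte, had 6441 CPM in the dead library, 2200.2 CPM in embryo 6 and 206 CPM in embryo 8, against 55.4 to 287 CPM with a median of 120 in kept libraries. The dead library and embryo 6 lay far above every kept library and embryo 8 among the highest of them. The log2 fold change of Bmp15 (X chromosome, 6314054 to 6320724 in GRCm38.p6) was 4.88 ± 0.61 (SE; edgeR adjusted p = 0.000966).

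Other secreted or oocyte-restricted products did not all follow this order, since Oosp1, Gdf9 and Zp2 were higher in embryo 6 than in the dead library. Oosp1, an oocyte-secreted protein, had 2387 CPM in the dead library, 2440.4 CPM in embryo 6 and 275 CPM in embryo 8, against 102 to 838 CPM with a median of 232 in kept libraries, and its log2 fold change was 3.01 ± 0.55 (SE; edgeR adjusted p = 0.00196). Oog1, a leucine-rich repeat protein of oocytes and early embryos, had 1061 CPM in the dead library, 775 CPM in embryo 6 and 201 CPM in embryo 8, against 81.4 to 185 CPM in kept libraries. For Oog1 the groups did not overlap, and its log2 fold change was 2.69 ± 0.40 (SE; edgeR adjusted p = 0.000983). Gdf9, the partner of Bmp15 in signalling to follicle cells, and Zp2, a zona pellucida glycoprotein, both passed with a log2 fold change of 1.80, and neither passed without the dead library (edgeR adjusted p = 0.0503 for Gdf9 and 0.199 for Zp2) or without embryo 6 (0.154 for Gdf9 and 0.138 for Zp2). Nlrp5, another oocyte marker, passed with a log2 fold change of 1.48 (edgeR adjusted p = 0.0437), but not without the dead library (0.206) or embryo 6 (0.184). The other oocyte markers checked, Npm2, Zp3 and Zp1, did not pass. Npm2, a histone chaperone of the egg, had 222 CPM in the dead library, 359.9 CPM in embryo 6 and 74.3 CPM in embryo 8, against 106 to 280.2 CPM in kept libraries (edgeR adjusted p = 0.247). Zp3, a zona pellucida glycoprotein like Zp2, had 17.8 CPM in the dead library, 24.5 CPM in embryo 6 and 171 CPM in embryo 8, against 28.1 to 310 CPM in kept libraries (log2 fold change -1.08; edgeR adjusted p = 0.243). The dead library and embryo 6 were thus below every kept library for Zp3. Zp1 missed the threshold as well (log2 fold change 1.34; edgeR adjusted p = 0.0986). The one oocyte-derived gene that passed as lower was Sohlh1, a transcription factor of early folliculogenesis, named after its value was seen.

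Genes of oocyte mRNA clearance were split, with 11 of 29 higher and 3 lower and a median log2 fold change of 0.59. Without the dead library 4 were higher and 1 lower, and without embryo 8 there were 11 and 8. Btg4, the adaptor that brings CCR4-NOT to maternal mRNA, had 9461 CPM in the dead library, 4135 CPM in embryo 6 and 719.7 CPM in embryo 8, against 184 to 1201 CPM with a median of 385 in kept libraries. Its log2 fold change was 3.73 ± 0.55 (SE; edgeR adjusted p = 0.000983), and the gene lies on chromosome 9 at 51102147 to 51119924. In the dead library Btg4 alone took 0.946% of all counts, against a kept median of 0.0385%. Cnot7, a catalytic subunit of the same deadenylase, had 3761 CPM in the dead library, 1540.3 CPM in embryo 6 and 341 CPM in embryo 8, against 146 to 506 CPM in kept libraries, with a log2 fold change of 3.10 ± 0.50 (SE; edgeR adjusted p = 0.00106). Dcp2, the catalytic decapping enzyme, had 499 CPM in the dead library, 160.5 CPM in embryo 6 and 127 CPM in embryo 8, all above the kept range of 43.5 to 92.1 CPM. The machinery of clearance is itself stored as maternal mRNA, so Btg4 and Cnot7 stand on both lists. The genes of this list that fell were Tead4, Cnot1 and Dcp1b. Tead4, a transcription factor through which the embryo's own genome takes part in clearance, had no count in the dead library or embryo 6 and 1.14 CPM in embryo 8, against 0.987 to 84.5 CPM with a median of 27.3 in kept libraries (log2 fold change -5.11 ± 1.10, SE; edgeR adjusted p = 0.00474).

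Transcripts of the 2-cell stage did not move as a group, with 4 of 50 higher, 2 lower and a median log2 fold change of -0.63. Over all genes 12.3% rose and 6.86% fell. Without embryo 8 there were 4 higher and 10 lower, and the median was -1.42. In the same fit 2797 of all 16435 genes were higher and 3428 lower, with a median of -0.66. The mean level hid a wide split among the 3 libraries. It was 2.31 on the log2(CPM + 1) scale in the dead library, 6.12 in embryo 6 and 6.79 in embryo 8, against 5.71 to 8.10 in kept libraries. In the dead library 36 of the 50 genes lay below the kept range and at least 4-fold under the kept median, against 10 in embryo 6 and 1 in embryo 8. Over all genes tested the same measure held for 31.7% in the dead library, 13.1% in embryo 6 and 3.46% in embryo 8. The 4 genes that rose, Obox1, Obox2, Obox5 and Obox7, belong to the Obox genes known to be transcribed already in the oocyte. Obox5 had 4673 CPM in the dead library, 2793 CPM in embryo 6 and 780.3 CPM in embryo 8, against 237 to 879 CPM in kept libraries, with a log2 fold change of 2.97 ± 0.47 (SE; edgeR adjusted p = 0.00102). Obox3, which is zygotic, had 7.42 CPM in the dead library, 141 CPM in embryo 6 and 1152 CPM in embryo 8, against 817 to 3823 CPM in kept libraries (edgeR adjusted p = 0.166). Kdm5b, a demethylase of histone H3 lysine 4, fell with Btg2, an antiproliferative gene and a target of p53, but neither passed without the dead library (edgeR adjusted p = 0.0528 for Kdm5b and 0.111 for Btg2) or without embryo 6 (0.100 for Kdm5b and 0.126 for Btg2), and Btg2 also missed without embryo 8 (0.0791).

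Genes of ribosome biogenesis were the clearest lower group. Of 76 tested, 27 fell and 0 rose, with a median log2 fold change of -1.88 against -0.19 for all genes. Their mean level on the log2(CPM + 1) scale was 2.53 in the dead library, 4.64 in embryo 6 and 6.43 in embryo 8, against 5.64 to 7.72 in kept libraries with a median of 7.36. Only kept embryo 9 was below embryo 8. Wdr75, a factor of the small subunit processome, had 2.25 CPM in the dead library, 18.8 CPM in embryo 6 and 30.1 CPM in embryo 8, against 59.7 to 336 CPM with a median of 219 in kept libraries. The groups did not overlap, and the log2 fold change of Wdr75 was -3.40 ± 0.66 (SE; edgeR adjusted p = 0.00295). Rpf2, an assembly factor of the large subunit, had 4.79 CPM in the dead library, 23.6 CPM in embryo 6 and 58.1 CPM in embryo 8, against 51.6 to 629 CPM with a median of 359 in kept libraries, with a log2 fold change of -3.42 ± 0.71 (SE; edgeR adjusted p = 0.00404). Wdr43 had 62.3 CPM in the dead library, 114 CPM in embryo 6 and 282 CPM in embryo 8, all under the kept range of 551 to 967 CPM. Tsr1, a factor of small subunit maturation, had 11.8 CPM in the dead library, 16.2 CPM in embryo 6 and 41.3 CPM in embryo 8, all under the kept range of 52.6 to 177 CPM. Leaving out the dead library left 10 of the list's genes lower, leaving out embryo 6 left 8, and leaving out embryo 8 gave 61.

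Cytosolic ribosomal protein genes showed the same order of libraries. Of 82 tested, 11 fell and 1 rose, with a median log2 fold change of -1.48. Their mean log2(CPM + 1) was 1.61 in the dead library, 5.35 in embryo 6 and 6.86 in embryo 8, against 6.52 to 7.62 in kept libraries. In the dead library 80 of the 82 lay below the kept range and at least 4-fold under the kept median, against 38 in embryo 6 and 2 in embryo 8. Rpl19, of the large subunit, had 1.97 CPM in the dead library, 69.8 CPM in embryo 6 and 80 CPM in embryo 8, against 195 to 428 CPM with a median of 330.3 in kept libraries, with a log2 fold change of -2.54 ± 0.68 (SE; edgeR adjusted p = 0.0157). Rpl3, of the same subunit, had no count in the dead library, 1.91 CPM in embryo 6 and 6.66 CPM in embryo 8, against 19.4 to 109 CPM in kept libraries. The gene that rose was Rpl17, with 126 CPM in the dead library, 62.7 CPM in embryo 6 and 32.8 CPM in embryo 8, against 18.2 to 51.1 CPM in kept libraries, and it did not pass without the dead library (edgeR adjusted p = 0.396) or without embryo 6 (0.0519). Ribosomal protein genes have many processed pseudogenes, and reads can be split between a gene and its copies. Without the dead library 5 of the list fell, without embryo 6 there were 3, and without embryo 8 there were 66.

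**Figure D2:**
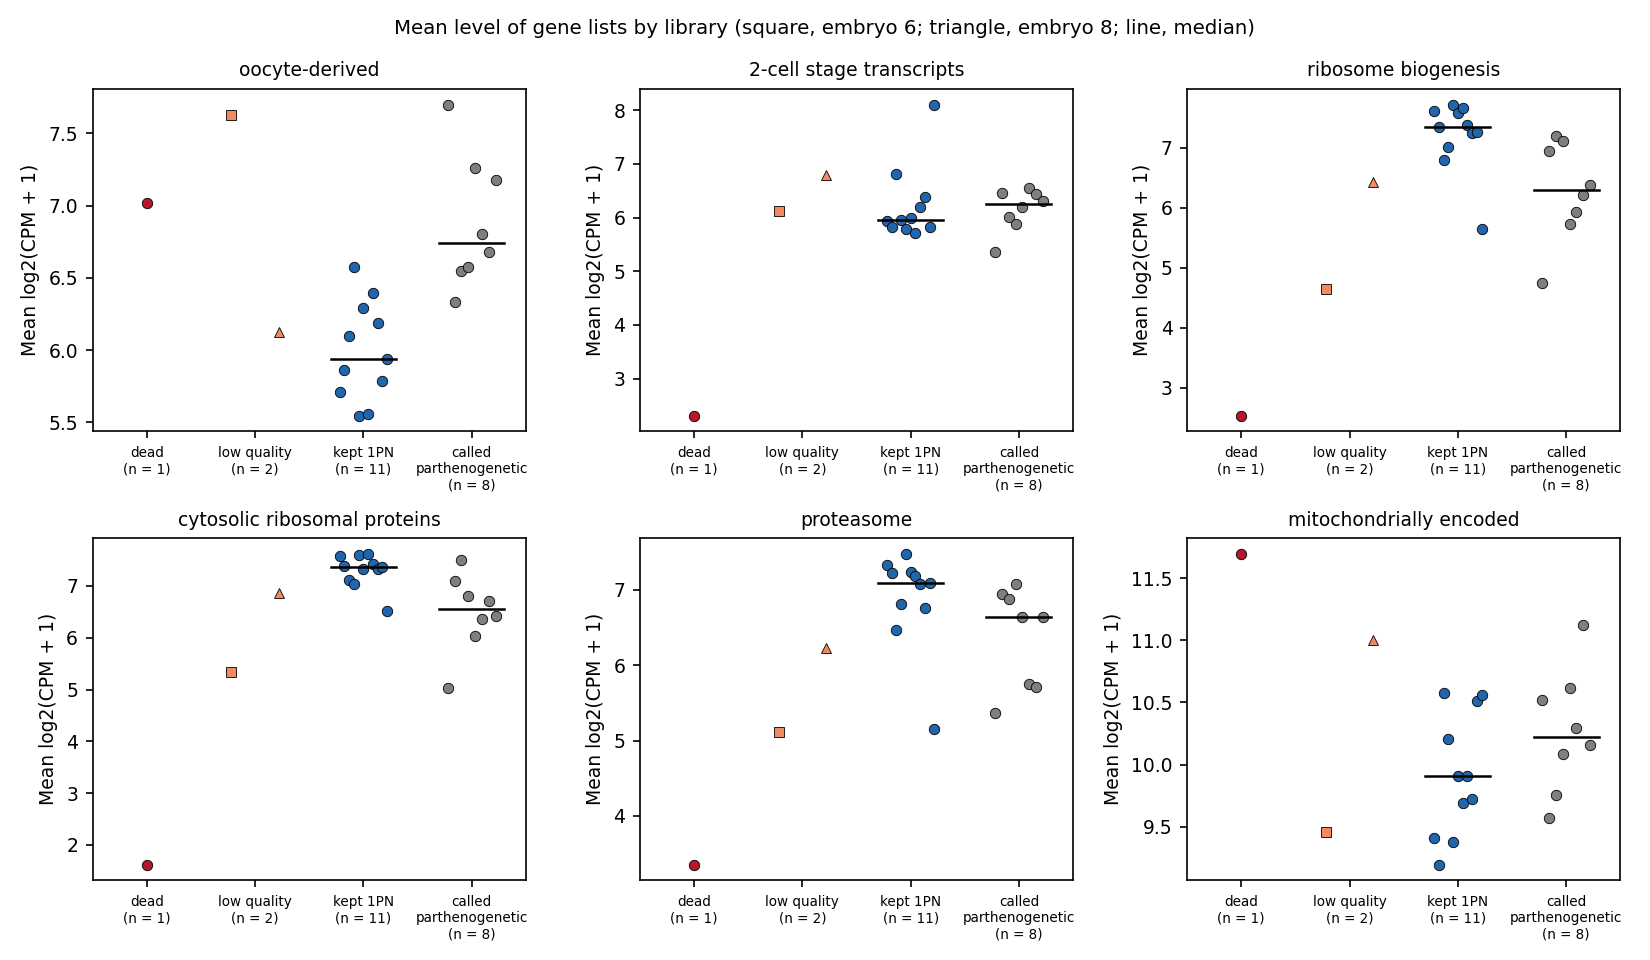
Mean log2(CPM + 1) of the tested genes of 6 lists in each 1PN library (points; line, median; square, embryo 6; triangle, embryo 8). Oocyte-derived transcripts in the dead library (7.02) and embryo 6 (7.62) are above all kept libraries (highest 6.57), while the dead library is lowest in 2-cell transcripts (2.31), ribosome biogenesis (2.53) and ribosomal proteins (1.61).

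Other housekeeping lists had negative medians and fewer calls, to be read against the 6.86% of all genes that fell. Of 38 proteasome genes 10 fell and 1 rose, with a median log2 fold change of -1.29, and 4 fell without the dead library, 3 without embryo 6 and 20 without embryo 8. Psmd7, of the regulatory particle's lid, had 39.7 CPM in the dead library, 56.7 CPM in embryo 6 and 57.1 CPM in embryo 8, against 147 to 706 CPM with a median of 470.1 in kept libraries, with a log2 fold change of -2.92 ± 0.51 (SE; edgeR adjusted p = 0.00153). Here the 3 excluded libraries were close to each other and all under every kept library. The one proteasome gene that rose, Psme3, which encodes an activator of the core particle, did not pass without the dead library (edgeR adjusted p = 0.128). Of 73 nuclear genes of the respiratory chain 8 fell and 0 rose, with a median log2 fold change of -0.88, and 3, 6 and 20 fell without the dead library, embryo 6 and embryo 8 in that order. Atp5h, a subunit of ATP synthase, had 2.54 CPM in the dead library, 26.4 CPM in embryo 6 and 37.9 CPM in embryo 8, all under the kept range of 48.4 to 183 CPM. Of 46 splicing factors 4 fell and 0 rose, a share near that of all genes, with a median of -0.90, and 2, 1 and 19 fell without the same libraries in the same order. Hnrnpm, an RNA-binding protein of splicing, had no count in the dead library, 36.8 CPM in embryo 6 and 10.1 CPM in embryo 8, against 28.6 to 267 CPM in kept libraries.

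Mitochondrially encoded transcripts went the other way from the nuclear genes of the respiratory chain in the dead library and in embryo 8. Of 13 tested, 6 rose and 0 fell, with a median log2 fold change of 1.31, and without the dead library 0 of the 13 passed. Cytochrome b, mt-Cytb, had 71684 CPM in the dead library, 13329.9 CPM in embryo 6 and 43874 CPM in embryo 8, against 11852 to 31218 CPM in kept libraries. The dead library and embryo 8 lay above every kept library and embryo 6 near the bottom of them. The mean log2(CPM + 1) of the 13 genes was 11.7 in the dead library, 9.46 in embryo 6 and 11 in embryo 8, against 9.19 to 10.6 in kept libraries. In the same 3 libraries the nuclear list averaged 1.82, 4.62 and 4.68 in that order, against 4.06 to 5.82 in kept libraries.

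Cell cycle and genome maintenance lists held single genes that moved in either direction, and their counts depended on embryo 8. Without it 7 genes of DNA replication were higher and 13 lower, 5 of mitosis higher and 18 lower, and 8 of the DNA damage response higher and 9 lower. In that fit 2797 of all 16435 genes were higher and 3428 lower, so the counts over all genes depended on embryo 8 as well. With all 3 libraries 12.3% of all genes rose and 6.86% fell, and the counts of these lists are to be read against those shares. Of 50 genes of DNA replication 2 rose and 5 fell. Orc5, a subunit of the origin recognition complex, had 530.2 CPM in the dead library, 399 CPM in embryo 6 and 102 CPM in embryo 8, all above the kept range of 13.5 to 89.4 CPM, with a log2 fold change of 3.16 ± 0.53 (SE; edgeR adjusted p = 0.00128). Prim2, the large subunit of DNA primase, had 5.64 CPM in the dead library, 3.54 CPM in embryo 6 and 6.47 CPM in embryo 8, all under the kept range of 30.4 to 59.8 CPM, with a log2 fold change of -2.67 ± 0.48 (SE; edgeR adjusted p = 0.00179). For Prim2 the 3 libraries were nearly level, unlike most genes here. Cdc45, of the replicative helicase, had 52.3 CPM in the dead library, 48.2 CPM in embryo 6 and 232 CPM in embryo 8, all under the kept range of 311 to 859 CPM, and missed the threshold without embryo 6 (edgeR adjusted p = 0.0558). Of 43 genes of the DNA damage response 4 rose and 3 fell. Chek1, the checkpoint kinase, had 838 CPM in the dead library, 409.5 CPM in embryo 6 and 311 CPM in embryo 8, all above the kept range of 51.3 to 249 CPM, with a log2 fold change of 2.38 ± 0.44 (SE; edgeR adjusted p = 0.00217). Of 49 genes of mitosis 3 rose and 2 fell. Those that rose, Nuf2, Mad2l1 and Ttk, act at the kinetochore or its checkpoint, and none of them passed without the dead library (edgeR adjusted p = 0.0899 for Nuf2, 0.514 for Mad2l1 and 0.553 for Ttk).

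Stress and death lists had calls in both directions. Of 36 p53 targets 2 rose and 2 fell, of 35 genes of apoptosis 5 rose and 3 fell, of 36 heat shock chaperones 3 rose and 2 fell, of 36 genes of the integrated stress response 6 rose and 3 fell, and of 36 genes of the oxidative stress response 3 rose and 4 fell. Over all genes tested 12.3% rose and 6.86% fell. The median log2 fold changes of the 5 lists lay between -0.62 and -0.22, against -0.19 for all genes. Leaving out embryo 8 made most calls negative in 4 of them, with 3 higher and 7 lower p53 targets (median -1.56), 6 and 10 genes of apoptosis (-1.45), 3 and 12 chaperones (-1.26), and 5 and 11 genes of the oxidative stress response (-0.58). It gave 7 higher and 5 lower genes of the integrated stress response (-0.85). In that fit 2797 of all 16435 genes were higher and 3428 lower, with a median of -0.66. Most calls were thus negative over all genes too. In the dead library 14 of the 35 genes of apoptosis lay below the kept range and at least 4-fold under the kept median, and 4 lay above it by the same measure, which held for 31.7% and 11.3% of all genes.

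Single members of these lists were nonetheless far from kept libraries. Ripk1, a kinase of death receptor signalling, had 77.9 CPM in the dead library, 119.8 CPM in embryo 6 and 17.1 CPM in embryo 8, against 1.41 to 17 CPM with a median of 5.98 in kept libraries, with a log2 fold change of 3.59 ± 0.57 (SE; edgeR adjusted p = 0.00103). Embryo 8 was level with the highest kept library. Bcl2l10, a Bcl2 relative that is also on the oocyte list, had 1519 CPM in the dead library, 1523 CPM in embryo 6 and 294 CPM in embryo 8, against 43.8 to 515 CPM in kept libraries. Birc3, an inhibitor of apoptosis, had 1413 CPM in the dead library, 210.5 CPM in embryo 6 and 79.2 CPM in embryo 8, against 30.6 to 117 CPM in kept libraries, and did not pass without the dead library (edgeR adjusted p = 0.0685). Trp53inp2, a protein of autophagy, had 79.3 CPM in the dead library, 319 CPM in embryo 6 and 72.4 CPM in embryo 8, all above the kept range of 10.5 to 37.6 CPM. Tigar, a p53-induced phosphatase of glycolysis, had 14.9 CPM in the dead library, 25.6 CPM in embryo 6 and 71.6 CPM in embryo 8, all under the kept range of 99.7 to 309.9 CPM. Cebpg, a partner of the stress factor Atf4, had 201 CPM in the dead library, 106 CPM in embryo 6 and 126 CPM in embryo 8, all above the kept range of 26.9 to 61.2 CPM, with a log2 fold change of 2.00 ± 0.34 (SE; edgeR adjusted p = 0.00136).

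Markers of other cells were few and low. Of 7 tested markers of cumulus and granulosa cells 1 fell and 0 rose, and their summed level was 58.1 CPM in the dead library, 87.7 CPM in embryo 6 and 216 CPM in embryo 8, against 151 to 491 CPM in kept libraries. The one that fell, Nr5a2, is also transcribed by early embryos, and it missed the threshold without the dead library (edgeR adjusted p = 0.129) or embryo 6 (0.0994). Of 6 tested markers of blood, immune and other somatic cells none passed, and their summed level was 7.33 CPM in the dead library, 62.5 CPM in embryo 6 and 123 CPM in embryo 8, against 27 to 200.3 CPM in kept libraries. Of 5 tested markers of sperm and testis 1 rose, Odf2, which many cells express at centrioles, and it did not pass without the dead library (edgeR adjusted p = 0.0755) or embryo 6 (0.163). The summed level of the sperm and testis markers was 229 CPM in the dead library, 413 CPM in embryo 6 and 72.7 CPM in embryo 8, against 53.6 to 184 CPM in kept libraries, and Odf2 made up 205, 397 and 33.9 CPM of it in that order. Of the listed markers in the table, 18 of 22 for cumulus and granulosa cells, 16 of 19 for sperm and testis and 12 of 15 for somatic cells had no count in the dead library, against 13, 11 and 9 in embryo 6 and 13, 11 and 7 in embryo 8. Kept libraries were not counted this way, and the dead library had fewer detected genes of any kind. Amh, Fshr, Foxl2 and Ptx3 of granulosa and cumulus cells, Prm1, Tnp1 and Tnp2 of sperm, and Alas2 of red cells had no count in any of the 3. Their kept median was 0 as well, so they do not set the groups apart. Other markers were present. In embryos 6 and 8 Amhr2 had 60 and 87 counts, against 3 to 499 in kept libraries. Hba-a1 had 44.5 and 77.5, against 21 to 102.5, and Cd74 had 15 and 150, against 3 to 210. Col1a1 had 14 counts in embryo 6, against 0 to 8 in kept libraries. Prm2, a protamine of sperm, had 32 counts in embryo 6 and 8 in embryo 8, against 0 to 9 in kept libraries. Tnfaip6 and Has2, of the expanding cumulus, had 150 and 18 counts in embryo 8, against 1 to 97 and 0 to 1 in kept libraries. The part of such cells in the results was not tested.

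Among the genes with the largest positive fold changes over all genes, several were near 0 in kept libraries. Stard3nl, which tethers late endosomes to the endoplasmic reticulum, had 568 CPM in the dead library, 555 CPM in embryo 6 and 57.9 CPM in embryo 8, against 1.69 to 56.1 CPM with a median of 12.6 in kept libraries, with a log2 fold change of 4.83 ± 0.73 (SE; edgeR adjusted p = 0.000983). Trappc2, a subunit of the TRAPP complexes of vesicle transport, had 696 CPM in the dead library, 168 CPM in embryo 6 and 51.2 CPM in embryo 8, against 1.12 to 40.3 CPM in kept libraries, with a log2 fold change of 4.65 ± 0.70 (SE; edgeR adjusted p = 0.000983). Car9, a carbonic anhydrase of the cell surface, had the largest log2 fold change of the named genes, 5.20 ± 0.90 (SE; edgeR adjusted p = 0.0015). It rested on 214 CPM in the dead library and 109.9 CPM in embryo 6, while embryo 8 had 5.9 CPM, inside the kept range of 0 to 9.33 CPM. Libraries called parthenogenetic had 44.5 to 442 CPM of Stard3nl, 28.4 to 147 CPM of Trappc2 and 0 to 62.9 CPM of Car9. Embryo 8 lay inside these ranges, and the dead library and embryo 6 above them.

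The genes with the most negative fold changes were nearly silent in all 3 excluded libraries. Fbxo31, the substrate receptor of a ubiquitin ligase, had no count in the dead library, 0.817 CPM in embryo 6 and 0.381 CPM in embryo 8, against 15.3 to 62.8 CPM with a median of 34.8 in kept libraries, with a log2 fold change of -5.12 ± 0.68 (SE; edgeR adjusted p = 0.000966). Coq5, a methyltransferase of coenzyme Q synthesis, had no count in any of the 3 libraries, against 1.42 to 95.3 CPM in kept libraries, and was at least 116-fold lower. Hsd17b6, a hydroxysteroid dehydrogenase, was at least 111-fold lower, Tars, a threonyl-tRNA synthetase, at least 82.4-fold lower, and Tcirg1, a subunit of the vacuolar proton pump, at least 59.7-fold lower, each with no count in the 3 libraries. These bounds use a floor of 3 counts over the 3 libraries together. The kept ranges were 5.85 to 106 CPM for Hsd17b6, 5.01 to 77.9 CPM for Tars and 1.18 to 40.7 CPM for Tcirg1, so that the lowest kept embryo was itself near the floor for some of these genes.

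The most negative fold changes also included Y-linked genes, which depend on the sex of the embryo. Y-linked genes had 8 counts in the dead library, 6 in embryo 6 and 5 in embryo 8. Among kept libraries 7 of 11 had at least 50 such counts, up to 961.5, and the other 4 had 6 to 9. Of 7 Y-linked genes tested 4 fell, and none of these passed without the dead library or without embryo 6 (edgeR adjusted p from 0.106 to 0.145). Without embryo 8 only Uty passed (adjusted p = 0.0302). The 8 libraries called parthenogenetic had 2 to 9 Y-linked counts. Low Y-linked counts occur in kept libraries too and say nothing on their own about a paternal genome.

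Imprinted genes read from the paternal allele do not depend on sex. Zrsr1, a retrogene of splicing, had no count in the dead library, 2.45 CPM in embryo 6 and 9.33 CPM in embryo 8, against 11.3 to 88.4 CPM with a median of 48.9 in kept libraries. Its log2 fold change was -3.30 ± 0.87 (SE; edgeR adjusted p = 0.0153), and it missed the threshold without embryo 6 (adjusted p = 0.0692). Mcts2, a retrogene within the gene H13, had 0.282 CPM in the dead library, 9.13 CPM in embryo 6 and 5.33 CPM in embryo 8, against 14.8 to 129 CPM in kept libraries, with a log2 fold change of -3.50 ± 0.76 (SE; edgeR adjusted p = 0.00493). Etv6, a transcription factor gene imprinted through histone methylation in early embryos, had 1.97 CPM in the dead library, no count in embryo 6 and 1.14 CPM in embryo 8, against 19.3 to 77.9 CPM in kept libraries, with a log2 fold change of -4.71 ± 0.74 (SE; edgeR adjusted p = 0.000983). For these 3 genes no excluded library reached the lowest kept library. Libraries called parthenogenetic had at most 2.02 CPM of Zrsr1, so embryos 6 and 8 were above all of them, and embryo 8 was nearer the lowest kept library. For Mcts2 and Etv6 those libraries reached 18.1 and 4.86 CPM, and no excluded library was above that.

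The summed level of Zrsr1, Mcts2, Etv6 and Snhg14, the last being the host transcript of the Prader-Willi region, was 3.95 CPM in the dead library, 13.2 CPM in embryo 6 and 19.2 CPM in embryo 8. It was 0.884 to 18.5 CPM with a median of 12.2 in the 8 libraries called parthenogenetic, and 71.6 to 305 CPM with a median of 189 in the 11 kept libraries. The excluded libraries thus lay within or just above the parthenogenetic range and under every kept library. For Zrsr1 alone embryos 6 and 8 were above every library called parthenogenetic. Over all genes tested, 31.7% in the dead library, 13.1% in embryo 6 and 3.46% in embryo 8 lay below the kept range and at least 4-fold under the kept median. How far generally low transcript levels lower this sum was not tested. Etv6 and Snhg14 were added to this sum because earlier results of these data had shown them to differ between parthenogenetic and other embryos, so the sum is a description. None of the 3 excluded libraries is called parthenogenetic in the labels.

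Other paternally expressed genes did not all follow. Of 26 tested, 4 fell (Etv6, Mcts2, Zrsr1 and Nnat) and 1 rose, where 6.86% of all genes fell and 12.3% rose. The one that rose was Gnas, with 53.1 CPM in the dead library, 112 CPM in embryo 6 and 36.6 CPM in embryo 8, all above the kept range of 2.06 to 17.8 CPM. The Gnas locus makes transcripts from either parental allele and from both, and gene counts do not separate them. Of 19 maternally expressed imprinted genes 3 rose and 1 fell, shares near those of all genes, and none of these 4 passed without the dead library.

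**Figure D3:**
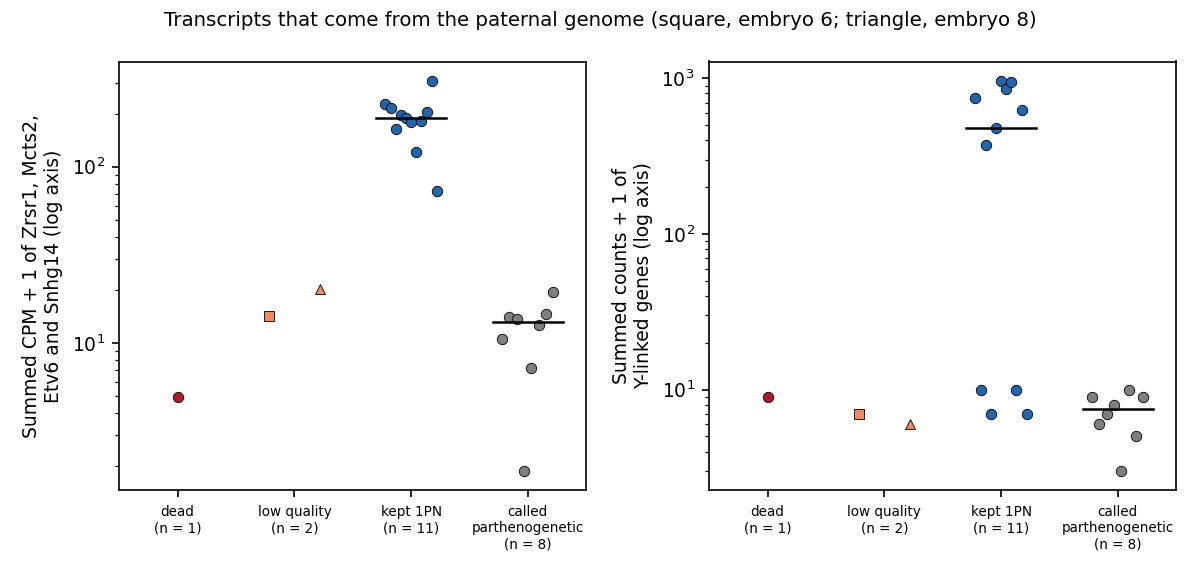
Summed CPM + 1 of Zrsr1, Mcts2, Etv6 and Snhg14 (left) and summed counts + 1 of Y-linked genes (right) in each 1PN library, on log axes (points; line, median; square, embryo 6; triangle, embryo 8). On the left the excluded libraries have 3.95 to 19.2 CPM before adding 1, within or just above the range of those called parthenogenetic. All kept ones are higher, the lowest at 71.6 CPM.

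The excluded libraries were therefore also set against the 8 libraries called parthenogenetic, a comparison chosen after seeing the data. Of 16435 genes edgeR called 0 (0.0%), with 1362 genes at an unadjusted p under 0.05. DESeq2 called 17 higher and 74 lower in excluded libraries, limma voom called 1 higher and 3 lower, and edgeR with no filter on low counts called 1. For the 2 low quality libraries alone edgeR called 0 genes (0.0%), with 621 at an unadjusted p under 0.05, while DESeq2 called 27 and limma voom 3. A missed threshold does not show that the libraries are alike, and the dead library stayed apart from the parthenogenetic ones in several lists. The rank correlation across genes with the mean of the libraries called parthenogenetic was 0.582 for the dead library, 0.789 for embryo 6 and 0.859 for embryo 8, against 0.767 to 0.899 for those 8 libraries, each set against the mean of the rest. Each excluded library had a higher rank correlation with the parthenogenetic mean than with the kept mean, as did kept embryo 9 (0.757 with the parthenogenetic mean and 0.743 with the kept mean).

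Several levels that set the excluded libraries apart from kept ones overlapped those of libraries called parthenogenetic. In the latter the mitochondrial share ran from 5.03% to 16.6% and the share of the 50 most counted genes from 11.6% to 28.4%. Their rank correlation with the kept mean ran from 0.656 to 0.877. Embryo 8 lay inside all of these ranges and the dead library outside all of them. Embryo 6 lay inside that of the 50 most counted genes and just under the others. Mean log2(CPM + 1) of oocyte-derived transcripts was 7.02 in the dead library, 7.62 in embryo 6 and 6.12 in embryo 8, against 6.33 to 7.70 in libraries called parthenogenetic. For ribosome biogenesis embryo 8 lay inside the parthenogenetic range of 4.75 to 7.19, embryo 6 at 4.64 just under it, and the dead library at 2.53 far under it. Tsr1, of small subunit maturation, had 11.8, 16.2 and 41.3 CPM in the dead library, embryo 6 and embryo 8, against 5.86 to 36.4 CPM in libraries called parthenogenetic. Orc5 had 530.2, 399 and 102 CPM in the same order, against 88 to 296 CPM. Fbxo31 stood out from this overlap, with at most 0.817 CPM in excluded libraries against 8.26 to 40.9 CPM in those called parthenogenetic (log2 fold change -4.38 ± 0.87, SE; edgeR adjusted p = 0.311). Tars, with no count in excluded libraries, had 4.14 to 80.4 CPM in those called parthenogenetic (edgeR adjusted p = 0.311).

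**Figure D4:**
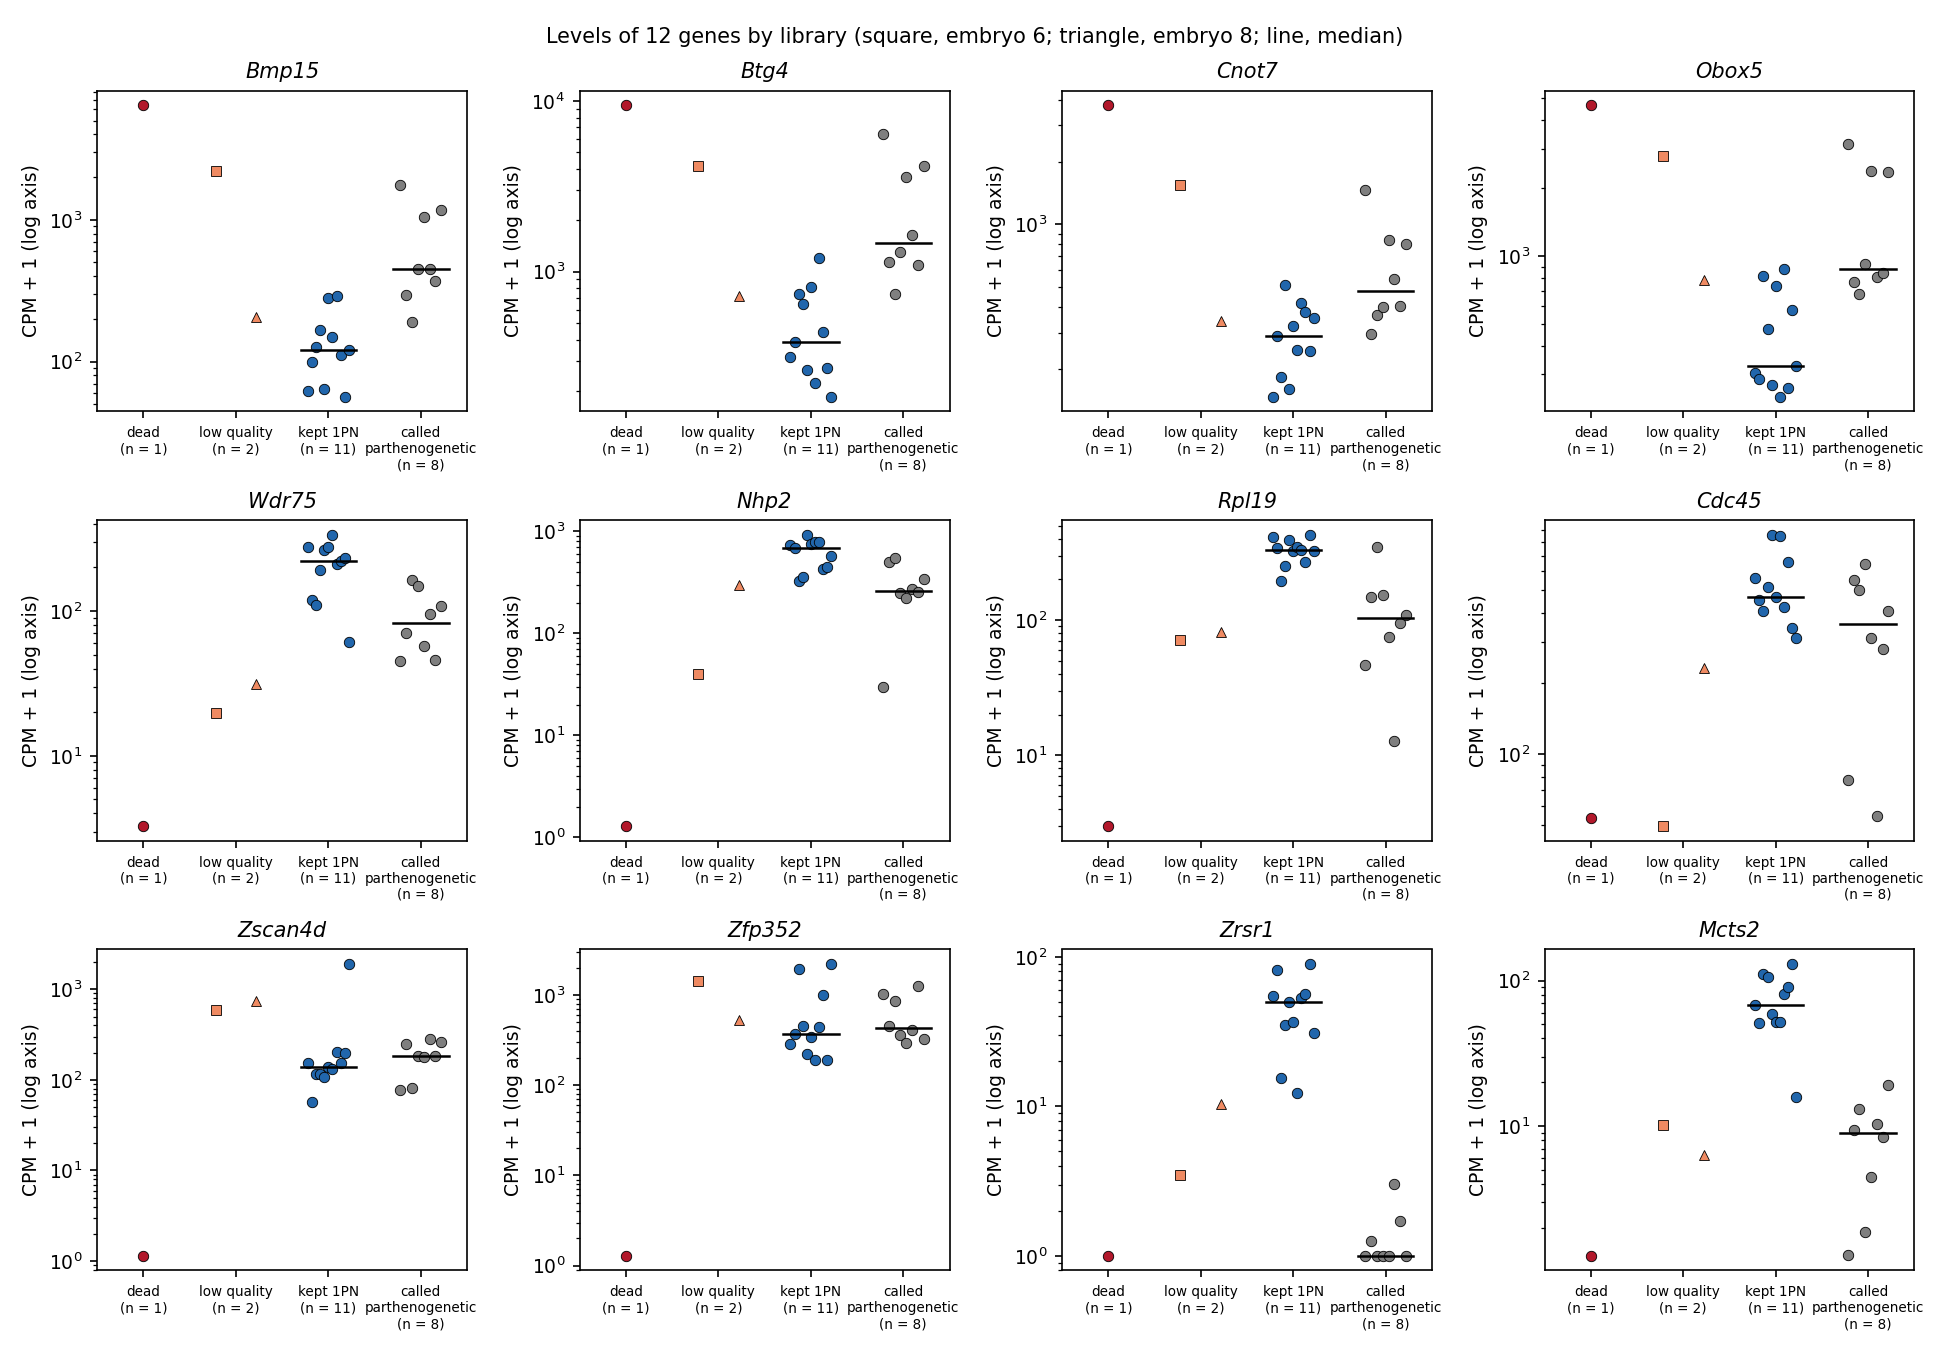
CPM + 1 on a log axis of 12 genes in each 1PN library (points; line, median; square, embryo 6; triangle, embryo 8). Bmp15, Btg4, Cnot7 and Obox5 are highest in the dead library (6441 CPM for Bmp15), Wdr75, Nhp2 and Rpl19 are lowest in it, and Zscan4d and Zfp352 are near 0 only in the dead library.

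The 2 low quality libraries were also tested without the dead one. Against the same 11 kept libraries edgeR called 917 of 16435 genes (5.58%), 573 higher (3.49%) and 344 lower (2.09%) in low quality libraries. The counts rest on 1 embryo. Leaving out embryo 6 left 9 calls, leaving out embryo 8 gave 2727, and leaving out kept embryo 9 gave 2205. In the first 2 of these the lone library is assumed to vary like the other group. Of the oocyte-derived list 11 were higher and 1 lower, of ribosome biogenesis 10 were lower and 0 higher, and of ribosomal proteins 5 were lower and 0 higher. The median log2 fold changes of these lists were 1.15, -1.44 and -1.03 in that order, against -0.06 for all genes. Among the genes with the largest fold changes here was Klf6, a zinc finger factor of the early response, with 38.1 CPM in embryo 6 and 41.9 CPM in embryo 8, against 0 to 5.47 CPM in kept libraries. The dead library had no count of Klf6. Libraries called parthenogenetic had 0 to 47 CPM of Klf6, so embryos 6 and 8 lay inside their range. With all 3 excluded libraries Klf6 passed (edgeR adjusted p = 0.0265), but not without embryo 6 (0.115), with limma voom (0.0768) or in the single fit of all libraries (0.957).

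Each library was then described alone, with no test, by the genes that lay outside the range of the 11 kept libraries and at least 4-fold from their median, on a scale of CPM + 1. The 3 descriptions share the kept libraries. The dead library had 7067 such genes (43% of 16435), of which 1857 (11.3%) lay above and 5210 (31.7%) below. Embryo 6 had 4121 (25.1%), with 1974 (12%) above and 2147 (13.1%) below. Embryo 8 had 1471 (8.95%), with 903 (5.49%) above and 568 (3.46%) below. By distance alone, 8511 genes in the dead library, 5264 in embryo 6 and 2312 in embryo 8 were at least 4-fold from the kept median, against 398 to 1625 in 10 of the kept libraries and 3423 in kept embryo 9, which enter that median themselves.

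**Figure D5:**
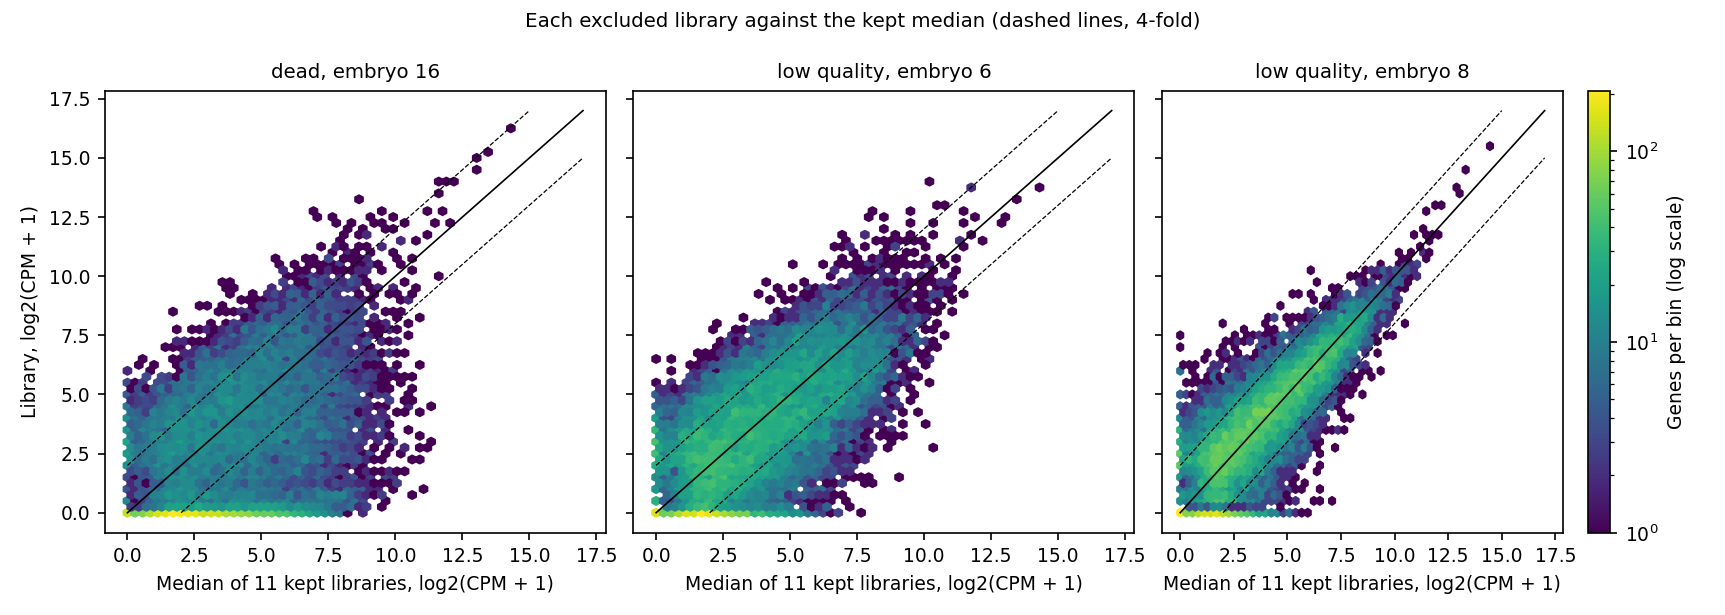
Level of each tested gene, as log2(CPM + 1), in the dead library, embryo 6 and embryo 8 (y axis) against the median of the 11 kept libraries (x axis), with bins coloured by the number of genes on a log scale (solid line, equal; dashed lines, 4-fold). The dead library has a band of genes at 0 that reach high kept levels, and embryo 8 stays closest to the line, with 1471 genes outside the kept range and at least 4-fold from its median, against 7067 in the dead library and 4121 in embryo 6.

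The dead library was marked by near absence of transcripts that every kept embryo had at high levels. Whether they were lost or never made was not tested. Rpl41, a small ribosomal protein, had 1.13 CPM there against 1811 to 5489 CPM in kept libraries. Mad2l1bp, which silences the spindle checkpoint, had 0.846 CPM against 1119 to 3229 CPM, and Cct3, a subunit of the cytosolic chaperonin, had 0.564 CPM against 375 to 849 CPM. Nhp2, a core protein of nucleolar RNA particles, had 0.282 CPM against 326 to 931 CPM. In embryo 6 the same genes had 366 CPM of Rpl41, 617 CPM of Mad2l1bp, 170 CPM of Cct3 and 39.1 CPM of Nhp2, so these genes were lower in the dead library than in embryo 6 as well. On the higher side Zfp735, a zinc finger gene, had 811 CPM in the dead library, 164 CPM in embryo 6 and 129 CPM in embryo 8, against 2.25 to 82.3 CPM in kept libraries. Snora47, a small nucleolar RNA, had 377 CPM in the dead library against 0.229 to 38.5 CPM in kept ones, and gene counts do not separate it from reads of its host.

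Embryo 6 combined oocyte transcripts with 2-cell ones. Its most counted gene was Zbed3, an egg factor of the subcortical complex, with 1.55% of counts against a kept median of 0.127%. Cdo1, cysteine dioxygenase, had 797 CPM in embryo 6, above the kept range of 5.34 to 50.6 CPM, and 105 CPM in the dead library. Grm4, a glutamate receptor, had 262 CPM in embryo 6 against 0 to 25.1 CPM in kept libraries, and Psenen, a subunit of gamma-secretase, had 202 CPM against 0.163 to 25.7 CPM. Libraries called parthenogenetic reached 367 CPM of Cdo1, 191 CPM of Grm4 and 138 CPM of Psenen, each under embryo 6 but far above the kept ranges. On the lower side Polr1e, a subunit of RNA polymerase I, had 1.63 CPM against 124 to 751 CPM. Ndufs8, a core subunit of complex I, had no count against 37.7 to 145 CPM, and Timm10, a carrier chaperone of the mitochondrial intermembrane space, had no count against 20.7 to 417 CPM. These 3 genes were also at 0 to 0.282 CPM in the dead library, while embryo 8 held 179 CPM of Polr1e, 75.8 CPM of Ndufs8 and 181 CPM of Timm10, all inside the kept ranges. The lowest values in libraries called parthenogenetic were 11.8 CPM of Polr1e, 0 CPM of Ndufs8 and 17.7 CPM of Timm10.

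Embryo 8 was the nearest of the 3 to kept libraries, yet 1471 genes (8.95%) lay outside the kept range and at least 4-fold from its median. By distance from that median alone, with 2312 genes at least 4-fold away, it lay further off than every kept library except embryo 9. Prdm1, a transcriptional repressor needed for germ cells and plasma cells, had 117 CPM in embryo 8, 15.2 CPM in the dead library and 2.45 CPM in embryo 6, against 0 to 6.84 CPM in kept libraries. Tspan6, a tetraspanin, had 264 CPM in embryo 8 against 0 to 17.3 CPM in kept libraries. Bdnf, a neurotrophin, had 78.1 CPM in embryo 8 against 0 to 9.38 CPM in kept libraries, and Mycn, a Myc family factor, had 70.1 CPM against 0 to 40 CPM. Libraries called parthenogenetic reached 90.6 CPM of Mycn, so embryo 8 lay inside their range for that gene. They reached 21 CPM of Prdm1, 71 CPM of Tspan6 and 4.42 CPM of Bdnf, each under embryo 8. On the lower side Hgs, of the endosomal sorting machinery, had no count in embryo 8 against 17.6 to 68.1 CPM in kept libraries, and Brf2, a factor of RNA polymerase III, had 0.381 CPM against 21.7 to 208 CPM. Its mitochondrial share of 12.6% was above every kept library but inside the parthenogenetic range of 5.03% to 16.6%. Its paternal sum of 19.2 CPM was under every kept library, although its 2-cell, oocyte and ribosome biogenesis levels lay inside the kept ranges. For ribosome biogenesis only kept embryo 9 was lower.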

How the data were processed

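Estimated counts per gene for 125 libraries were deposited by the authors in 1 table, and 28.4% of its non-zero values are not whole. Per the submitters' processing notes, HISAT2 2.0.5, featureCounts 2.0.0 and GRCm38 were used; the sources used here do not give the handling of strand or of reads shared between genes. Of 43421 genes, 43266 identifiers matched a symbol and 32346 matched RefSeq annotation of GRCm38.p6, the source of the coordinates.

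Estimated counts were rounded to whole numbers and tested with edgeR 4.0.16 (R 4.3.3; TMM factors, filterByExpr by group, quasi-likelihood F test, Benjamini-Hochberg adjustment, threshold 0.05) over the 14 excluded and kept libraries. CPM was computed on total counts, and log2 levels use a pseudocount of 1 CPM. Library measures were compared by exact permutation tests. A gene at 0 in all excluded libraries was given a floor of 3 counts over the 3, which covers counting error only. No pair of the 14 libraries was a duplicate (lowest chi-square per gene 15.4). Alternatives used DESeq2 1.42.0, limma 3.58.1 voom, other scalings, filters and fits, and left out libraries.

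Genes named were the 10 highest and 10 lowest fold changes past the threshold with at least 10 CPM in the higher arm, 4 per list by p, the 5 farthest above and below for each library with at least 20 CPM, and markers; unnamed gene models were left out. Libraries, lists and markers were chosen with earlier results of these data known. The comparisons with libraries called parthenogenetic were chosen after seeing the data.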

Additional observations from a re-analysis of the deposited data

How the results depend on the processing

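No paired analysis was possible because each library is a different embryo and the labels do not say which embryos shared parents. Between excluded and kept libraries, DESeq2 called 5139 genes, with 2633 lower, a single fit of all libraries 6805, with 4544 lower, and a fit with dead and low quality as separate groups 6727, with 4420 lower. Limma voom called 2406 lower, and scaling by total counts alone 1280 higher. Leaving out 1 library gave 917 to 6225 calls, 573 to 2797 higher and 344 to 3428 lower. For low quality against kept libraries, DESeq2 called 2723 (1404 higher, 1319 lower), relative log expression factors 1454 (1072 higher), no filter 941 higher and total counts alone 567 (347 higher, 220 lower). Leaving out 1 library gave 9 to 2727 calls, 5 to 1298 higher and 4 to 1429 lower, and without kept embryo 9 there were 2205 (1287 higher, 918 lower). Against libraries called parthenogenetic, DESeq2 called 91 (17 higher, 74 lower), limma voom 4 (1 higher, 3 lower) and no filter 1 (lower); for the low quality libraries DESeq2 called 27 (7 higher, 20 lower) and limma voom 3 (all higher). For each library alone, a pseudocount of 10 CPM gave 3209 genes in the dead library, 1607 in embryo 6 and 276 in embryo 8, and a 2-fold minimum gave 6672 in embryo 6 and 3170 in embryo 8. Differences in measures, as excluded minus kept, ran over the left-out libraries from -3399 to 3.05 genes after thinning (highest without the dead library), from -339475 to 182623 total counts (highest without embryo 8), from 5.55 to 15.6 percentage points for the 50 most counted genes, from -0.349 to -0.159 for the rank correlation, and from -1.97 to -1.07 points for pseudogenes (-1.14 without kept embryo 9, where it passed). The differences in the top 50 share and in the rank correlation missed the threshold without any 1 excluded library, where few arrangements remain. List medians (log2), with 1 library left out, ran from 0.22 to 0.68 for mRNA clearance, from -1.45 to -0.08 for apoptosis, from -1.31 to -0.71 for paternally expressed genes (-0.92 without embryo 6), from -0.37 (without embryo 6) to 0.43 for maternally expressed genes and from -1.94 to -1.12 for sperm markers; on total counts alone that of Y-linked genes was -4.65. Among named genes the sign turned for Dpysl5 (-1.31 without embryo 8, up to 4.13 without others), Zscan4c (2.68 with DESeq2, 2.71 without kept embryo 9, down to -1.89 without others) and Zfp352 (-2.78 in the single fit, -2.79 with separate groups). The cause was not tested. Of 121 named genes past the threshold, 56 lost their call without the dead library, 43 without embryo 6 and 9 without embryo 8. With 3 libraries in the smaller group, a missed threshold says little.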

Other observations

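One library outside the comparisons, from a 2PN zygote of the reciprocal cross, is also labelled as of low quality and held 4803 gene counts, against at least 2025580 in each of the 14 libraries compared here.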
